A study of Fagopyrum tataricum with 9 samples.

Results

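The genes described here are the 55 genes of Tartary buckwheat (Fagopyrum tataricum) that were taken by identifier from the annotation list of hormone-related genes accompanying these data, 35 under gibberellin and 20 under cytokinin. They were chosen by annotation and not by level, and all 55 were found among the 33940 genes of the count table. The gibberellin genes comprise 18 genes annotated to synthesis (iron/ascorbate-dependent oxidoreductases) and 17 grouped here as signalling. The latter are 4 GDXG-type receptor genes, 3 GRAS genes annotated to response and 10 GASA genes annotated to signal transduction. Some gibberellin synthesis genes of that list were set aside and are not reported here. The counts, sums and shares of the synthesis genes therefore cover only part of the list. The cytokinin genes comprise 13 annotated to synthesis (10 LOG genes and 3 cytochrome P450 genes) and 7 annotated to metabolism (oxygen-dependent FAD-linked oxidoreductases). RNA was sequenced from untreated seeds of the cultivar XIQIAO NO.2 at 13, 19 and 25 days post anthesis (DPA), labelled as the green fruit, discoloration and initial maturity stages, with 3 libraries per stage. Each stage was sampled on the same individuals and the replicates were separate plants, although no label ties a replicate number to a plant. Whole seeds were used, so hull, endosperm and embryo were not separated, and fewer cells of a type cannot be told apart from less RNA per cell.

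Gibberellins are diterpenoid hormones whose late oxidation steps, both those that make the active forms and those that inactivate them, are catalysed by iron-dependent dioxygenases, a large enzyme family that also serves flavonoid and other pathways. The active hormone is bound by GID1 receptors, which are related to the GDXG lipolytic enzymes, and the bound receptor triggers the removal of DELLA repressors, a branch of the GRAS proteins. GASA genes encode small cysteine-rich peptides, several of which respond to gibberellin in Arabidopsis. Among the cytokinins, P450 enzymes hydroxylate the side chain of the nucleotides, LOG enzymes release the active free base from the nucleotides, and FAD-dependent cytokinin oxidases/dehydrogenases degrade it. The annotation gives a family for each gene but not the enzyme's substrate, so a member of the oxidoreductase family may make or inactivate a gibberellin or act elsewhere.

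Libraries held 22002318 to 25811462 counts. The share of counts in the 10 most abundant genes ranged from 5.82% to 18.0% over the 13 DPA libraries, from 29.3% to 36.5% over those of 19 DPA and from 33.9% to 35.9% over those of 25 DPA. Both glutelin genes fixed as seed storage markers were measured in every library. FtPinG0000417000.01 was at 9.20, 30.2 and 9.81 FPKM at 13 DPA and 3.06, 2.72 and 2.69 at 19 DPA. At 25 DPA it was at 18.8, 26.6 and 22.1. FtPinG0008579200.01 was at 82, 166 and 71.8, then 42.1, 39.9 and 35.8, then 55.8, 68.1 and 68.6. In FPKM both were lower at 19 than at 13 DPA, while the share of the 10 most abundant genes was higher. Whether they mark storage here was not tested. Globulin genes, which the paper also counts as storage proteins, were not used as markers. Replicate 2 of 13 DPA stood apart from the other libraries of its stage, with the 10 most abundant genes at 18.0% against 5.82% and 9.07%, and with FtPinG0000417000.01 at 30.2 FPKM against 9.20 and 9.81. The part of these differences in the results was not tested. Levels are given as the deposited FPKM, which are corrected for gene length and total counts only. Fold changes are those of the count model with TMM scaling between libraries, under which all genes tested had a median of -0.03 on the log2 scale from 13 to 19 DPA, -0.02 from 19 to 25 DPA and -0.07 from 13 to 25 DPA. With total counts alone these medians were -0.85, -0.32 and -1.19, so a gene whose FPKM fell by about these amounts moved with the bulk of the genes. In each comparison the later stage is set against the earlier one, and a gene was called changed where edgeR gave an adjusted p of at most 0.05 with a log2 fold change of at least 1 in size. Calls by another tool are named as such. With total counts, 594 of all genes tested were called higher and 7361 lower from 13 to 19 DPA. From 19 to 25 DPA these counts were 1218 and 5522, and from 13 to 25 DPA 1469 and 12513. The comparison of 25 with 13 DPA uses the libraries of the other comparisons and is not independent of them.

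Of the 35 gibberellin genes, 28 passed the filter on low counts. From 13 to 19 DPA, 6 of them were called, 1 higher and 5 lower (21.4%), where 8.57% of all genes tested were called, 4.11% higher and 4.46% lower. From 19 to 25 DPA, 11 were called, 4 higher and 7 lower (39.3%), against 28.8% of all genes, 9.27% higher and 19.5% lower. From 13 to 25 DPA, 12 were called, 6 higher and 6 lower (42.9%), against 42.2% of all genes, 16.6% higher and 25.6% lower. With total counts the splits were 1 higher and 9 lower, 4 and 9, and 4 and 17. With the replicate number as a block, the split from 13 to 19 DPA was 2 higher and 5 lower, and in a blocked fit of only those 6 libraries 4 higher and 5 lower. Over all genes tested these blocked fits gave 1441 higher and 1302 lower, and 1762 higher and 1662 lower. The count of 6 from 13 to 19 DPA was 1 without replicate 1 of 13 DPA, 11 without replicate 2, 2 without replicate 3, and 3, 2 and 2 without replicates 1, 2 and 3 of 19 DPA. Over all genes, the 2024 calls of that comparison became 402, 3065 and 724 without replicates 1, 2 and 3 of 13 DPA. Without those of 19 DPA they became 1037, 672 and 1178. The count of 11 from 19 to 25 DPA was 7 without replicate 1 and 6 without replicate 3 of 19 DPA, and 5 and 7 without replicates 1 and 2 of 25 DPA. Over all genes, the 6793 calls of this comparison became 5262 and 5681, and 5450 and 6285, in the same order.

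Of the 20 cytokinin genes, 14 passed the filter. None was called from 13 to 19 DPA by edgeR, beside 8.57% of all genes tested, while 3 of the 14 had an unadjusted p under 0.05. DESeq2 ran without that filter on 19 of the cytokinin genes and called 1 higher and 1 lower. Its lower call was a gene that had not passed the filter and is given here as not tested. From 19 to 25 DPA, 3 were called, 1 higher and 2 lower (21.4%), and from 13 to 25 DPA also 3, 1 higher and 2 lower (21.4%), beside the 28.8% and 42.2% of all genes tested. With total counts, 2 were called lower from 13 to 19 DPA, 1 higher and 4 lower from 19 to 25 DPA, and 1 higher and 7 lower from 13 to 25 DPA. Without replicate 2 of 13 DPA or without replicate 1 of 25 DPA, 1 cytokinin gene was called from 13 to 19 DPA in place of none, and with the replicate number as a block 1 was called higher, or 2 in the blocked fit of only the 6 libraries of these stages. Over all genes these settings gave 3065, 1715, 2743 and 3424 calls, beside 2024 in the main fit. The count of 3 from 13 to 25 DPA was 5 without replicate 3 of 13 DPA or without replicate 3 of 25 DPA. Calls over all genes were 9492 and 9258 there, in place of 9964. The fitted changes of the named genes of both hormones are plotted together.

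**Figure D1:**
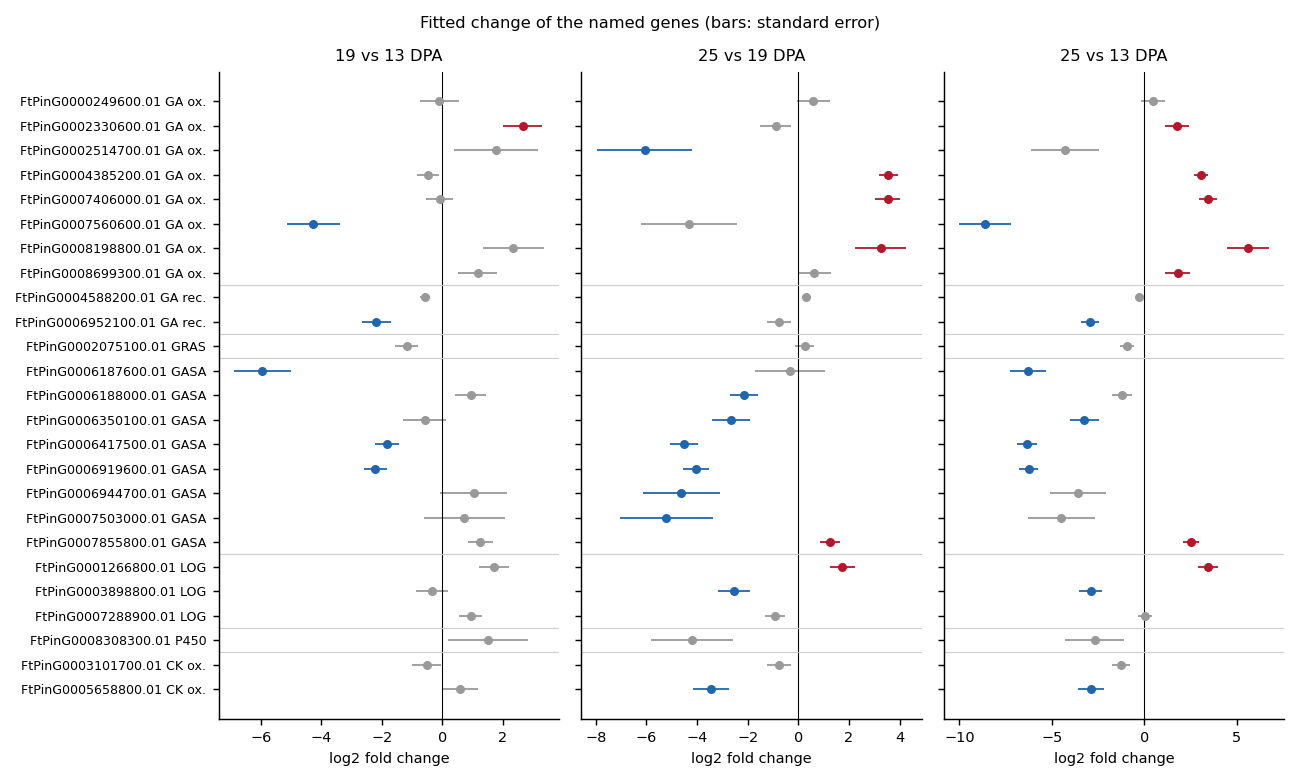
Fitted log2 fold changes (x axis, points) with standard errors (bars) of the 25 named genes in the 3 comparisons, with families separated by lines. Red points were called higher at the later stage, blue points lower and grey points were not called; the cytokinin genes in the lowest rows have no coloured point from 13 to 19 DPA.

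Among the gibberellin synthesis genes, 3 members rose at 25 DPA. FtPinG0007406000.01, FtPinG0008198800.01 and FtPinG0004385200.01 were each called higher at 25 DPA than at 19 DPA and than at 13 DPA, while FtPinG0007560600.01 was nearly lost after 13 DPA. Of the 18 genes, 12 were tested and 2 were called from 13 to 19 DPA (1 higher, 1 lower), 4 from 19 to 25 DPA (3 higher, 1 lower) and 6 from 13 to 25 DPA (5 higher, 1 lower). These calls were 16.7%, 33.3% and 50% of the 12, beside 8.57%, 28.8% and 42.2% of all genes tested. The median log2 fold changes of the 12 were 0.45, -0.15 and 1.13, each beside a median of all genes near 0. With total counts the split from 13 to 25 DPA was 3 higher and 4 lower. The 2 calls from 13 to 19 DPA became 5 without replicate 2 of 13 DPA, 1 without replicate 1 of 19 DPA, and none without replicate 1 or 3 of 13 DPA or replicate 2 or 3 of 19 DPA. The 4 calls from 19 to 25 DPA became 2 without replicate 3 of 19 DPA or replicate 1 of 25 DPA. Calls over all genes became 5681 and 5450 there in place of 6793, and those from 13 to 19 DPA are given above.

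FtPinG0007406000.01 was at 15.2, 7.78 and 13.1 FPKM in replicates 1 to 3 of 13 DPA, at 3.30, 8.82 and 5.89 at 19 DPA, and then at 39.6, 56.7 and 79.2 at 25 DPA. All libraries of 25 DPA lay above all earlier ones, and those of 13 and 19 DPA overlapped. The gene rose from 19 to 25 DPA with a log2 fold change of 3.53 ± 0.49 (SE, n = 3 per stage, adjusted p = 0.00133) and from 13 to 25 DPA with 3.45 ± 0.49 (edgeR, adjusted p = 0.000513). FtPinG0008198800.01 was at 1.63, 5.06 and 0 FPKM at 13 DPA, 4.63, 9.86 and 6.33 at 19 DPA, and then 56.5, 67.5 and 47.6 at 25 DPA. Again the 25 DPA libraries did not overlap with the others, and the 13 DPA library at 0 was replicate 3, where a count of 0 allows up to 3 counts. Its log2 fold change was 5.60 ± 1.15 from 13 to 25 DPA (edgeR, adjusted p = 0.00313). The rise from 19 to 25 DPA, 3.25 ± 1.02 (edgeR, adjusted p = 0.0324), was not called without replicate 1 (adjusted p = 0.109) or 3 (0.0993) of 19 DPA, or without replicate 1 (0.0672), 2 (0.0623) or 3 (0.0648) of 25 DPA, nor without the filter on low counts. Limma on log2(FPKM + 0.1) did not call this rise either. Leaving out single libraries kept its size between 2.97 and 3.79.

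FtPinG0004385200.01 was a low-level member with the same late rise. Its levels were 1.10, 1.67 and 1.33 FPKM at 13 DPA, 0.764, 0.396 and 0.573 at 19 DPA and then 6.79, 4.34 and 5.21 at 25 DPA, with no overlap between 25 DPA and the earlier stages. The log2 fold changes were 3.55 ± 0.38 from 19 to 25 DPA and 3.07 ± 0.36 from 13 to 25 DPA (edgeR, adjusted p = 0.000618 and 0.000217), and both calls held under every alternative run at the same threshold.

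FtPinG0007560600.01 moved the opposite way. It had 108, 38 and 76 counts at 13 DPA (3.99, 1.31 and 3.08 FPKM), 5, 0 and 1 counts at 19 DPA and none in the 3 libraries of 25 DPA. Every 13 DPA library lay above every later one. Set against a floor of 3 counts per library at 25 DPA, its mean scaled level at 13 DPA was 10.8-fold higher, a bound on the means and not on each library. Its fall from 13 to 25 DPA was called (edgeR, adjusted p = 0.00188). From 13 to 19 DPA it fell by 4.27 ± 0.89 on the log2 scale (edgeR, adjusted p = 0.0292). That call was lost without replicate 1 (adjusted p = 0.115) or 3 (0.0726) of 13 DPA and without replicate 2 (0.0702) or 3 (0.0812) of 19 DPA.

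FtPinG0002330600.01 rose from 13 to 19 DPA. It was at 0.605, 0.636 and 0.580 FPKM at 13 DPA, 2.12, 2.05 and 2.53 at 19 DPA, and then 0.733, 0.270 and 1.81 at 25 DPA. The libraries of 19 DPA did not overlap with those of 13 DPA, and replicate 3 of 25 DPA was nearest to them. The difference from 19 to 25 DPA, -0.89 ± 0.61, was not called (edgeR, adjusted p = 0.270), and the libraries of these stages overlapped after TMM scaling. The rise from 13 to 19 DPA was 2.67 ± 0.65 (edgeR, adjusted p = 0.0341) and was not called without any 1 of the libraries of 19 DPA (adjusted p = 0.0663, 0.0890 and 0.0676) or without replicate 1 (0.126) or 3 (0.103) of 13 DPA. The difference between 25 and 13 DPA, 1.78 ± 0.64 (edgeR, adjusted p = 0.0402), was smaller than this, and FPKM of the stages overlapped. It was lost with total counts (log2 fold change 0.62) and without any single library other than replicate 2 of 25 DPA, and without replicate 3 of 25 DPA its size was 0.75 (adjusted p = 0.253). The replicate block, a fit of only the libraries of the pair, and limma on log2(FPKM + 1) or log2(FPKM + 0.1) lost it as well.

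FtPinG0008699300.01 was called higher at 25 than at 13 DPA (1.81 ± 0.66, edgeR, adjusted p = 0.0427). Its levels were 2.20, 7.16 and 2.09 FPKM at 13 DPA, 2.90, 7.79 and 4.27 at 19 DPA, and then 5.57, 6.92 and 7.50 at 25 DPA. Replicate 2 was the highest library at both earlier stages and overlapped with 25 DPA in FPKM. From 13 to 19 DPA it was not called, with 1.17 ± 0.65 (edgeR, adjusted p = 0.296), and the blocked fit of only those 6 libraries called it higher (1.34, adjusted p = 0.0236). With total counts its difference from 13 to 25 DPA was 0.80 and was not called, and the call was also lost without replicate 1 (adjusted p = 0.129) or 3 (0.112) of 13 DPA, replicate 3 of 19 DPA (0.0528) or any single library of 25 DPA (0.0661, 0.0727 and 0.110). A fit without the filter on low counts and limma on log2(FPKM + 1) or log2(FPKM + 0.1) lost it as well.

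The member with the highest mean FPKM, FtPinG0000249600.01, was not called in any comparison. It stood at 18.6, 70.5 and 28.4 FPKM at 13 DPA, 15.0, 34.9 and 12.2 at 19 DPA, and then 27.8, 36.6 and 19.4 at 25 DPA, with replicate 2 highest at each stage and all stages overlapping. Its log2 fold changes were -0.10 ± 0.64, 0.59 ± 0.64 and 0.49 ± 0.64. Of the family's summed FPKM it held 41.9% ± 17.2 (SD, n = 3 libraries), 28.3% ± 17.8 and 16.4% ± 4.47 at the successive stages. FtPinG0007406000.01 and FtPinG0008198800.01 together held 18.5% ± 9.91, 16.7% ± 7.28 and 67.8% ± 5.82, and no library of 25 DPA (62.3% to 73.9%) overlapped with an earlier one (9.89% to 29.8%). The summed FPKM of the 18 genes was 87.3 ± 29.0, 83.6 ± 36.9 and 170 ± 15.3, and after TMM scaling 57.5 ± 26.7, 94.6 ± 38.5 and 235 ± 27.1. These sums at 25 DPA lay above every library of 13 and 19 DPA on both scales.

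FtPinG0002514700.01 differed more between replicates than between stages. It was at 3.55, 1.24 and 27.1 FPKM at 13 DPA and at 6.84, 0.264 and 53.4 at 19 DPA, so replicate 3 was far above replicate 2 at both, and it was at 0, 0.323 and 0.322 at 25 DPA. The fall from 19 to 25 DPA (-6.08 ± 1.88, edgeR, adjusted p = 0.0309) was called although replicate 2 of 19 DPA lay among the libraries of 25 DPA. Without replicate 3 of 19 DPA the adjusted p was 0.117, and without replicate 1, 2 or 3 of 25 DPA it was 0.0972, 0.0780 and 0.0823. Limma on log2(FPKM + 1) or log2(FPKM + 0.1) lost the call as well. A like order, with replicate 3 highest at both 13 and 19 DPA, was found in 8 of the 42 genes tested (19.0%), the same share as among all genes tested (19.0%). Replicate 2 was highest at both stages in 15 of the 42 (35.7%), where 23.5% of all genes tested had that order.

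Of the remaining oxidoreductase genes, 4 were tested and not called by edgeR: FtPinG0009540700.01 (1.41 to 16.7 FPKM over all libraries), FtPinG0003233400.01 (0.0396 to 31.6), FtPinG0005591800.01 (0.0385 to 3.40) and FtPinG0009397500.01 (0.177 to 2.25). DESeq2 called FtPinG0003233400.01 lower from 19 to 25 DPA (adjusted p = 0.0302) and, from 13 to 25 DPA, FtPinG0009540700.01 higher (0.0152) and FtPinG0005591800.01 (0.0212) and FtPinG0009397500.01 (0.0451) lower, where edgeR gave 0.0544, 0.0529, 0.0563 and 0.0602. FtPinG0003233400.01 was again highest in replicate 3 at 13 and 19 DPA, at 7.41 and 31.6 FPKM. The other 6 genes were not tested: FtPinG0009147800.01 had no count, and the remaining ones had at most 8 counts in any library.

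**Figure D2:**
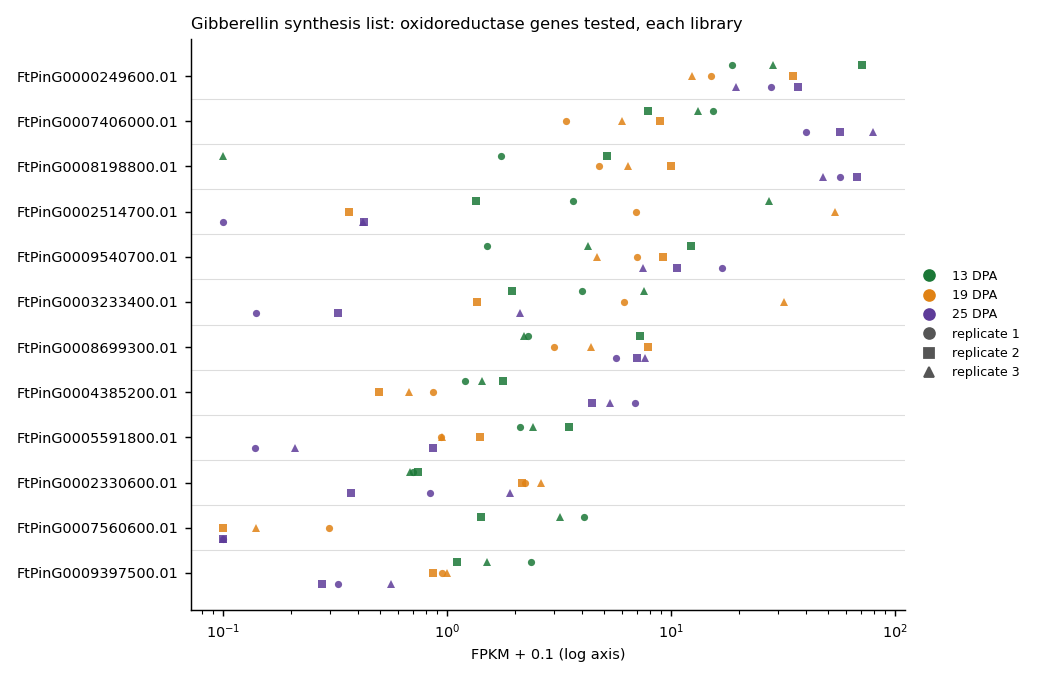
FPKM plus 0.1 on a log axis for the 12 gibberellin oxidoreductase genes tested, ordered by mean FPKM. Each symbol is a library, coloured by stage and shaped by replicate number; the 25 DPA libraries of FtPinG0007406000.01, FtPinG0008198800.01 and FtPinG0004385200.01 lie right of all earlier ones, and replicate 3 stands far right of replicate 2 at 13 and 19 DPA for FtPinG0002514700.01.

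Among the receptor genes, FtPinG0006952100.01 was the only 1 of 4 that was called, and it fell after 13 DPA. It was at 17.8, 3.81 and 10.4 FPKM at 13 DPA, 1.81, 0.808 and 1.33 at 19 DPA, and then 0.687, 0.813 and 0.394 at 25 DPA. The libraries of 13 DPA lay above all later ones, with replicate 2 the lowest of them. The change was -2.18 ± 0.47 from 13 to 19 DPA (edgeR, adjusted p = 0.0246) and -2.94 ± 0.49 from 13 to 25 DPA (adjusted p = 0.00109), while that from 19 to 25 DPA, -0.75 ± 0.48, was not called (adjusted p = 0.237). The call from 13 to 19 DPA was lost without replicate 1 (adjusted p = 0.0887) or 3 (0.0549) of 13 DPA, without replicate 1, 2 or 3 of 19 DPA (0.0521, 0.0855 and 0.0664), and in a fit of only these 6 libraries. From 19 to 25 DPA no receptor gene was called by edgeR or DESeq2 and none had an unadjusted p under 0.05. The 1 call was 25% of the 4 from 13 to 19 DPA and from 13 to 25 DPA. Of all genes tested, 8.57%, 28.8% and 42.2% were called from 13 to 19, 19 to 25 and 13 to 25 DPA.

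The other receptor genes were not called. FtPinG0004588200.01, the most abundant, was at 48.8, 30.6 and 42.7 FPKM at 13 DPA, 17.8, 12.4 and 15.9 at 19 DPA and then 15.1, 15.1 and 15.8 at 25 DPA. The lower FPKM after 13 DPA corresponded to log2 fold changes of -0.58 ± 0.17 from 13 to 19 DPA (edgeR, adjusted p = 0.0614) and -0.27 ± 0.17 from 13 to 25 DPA (adjusted p = 0.198), below the size required. With total counts, 3 receptor genes were called lower at 19 than at 13 DPA, and 3 at 25 than at 13 DPA. Without replicate 2 of 13 DPA or replicate 2 of 25 DPA, 2 receptor genes in place of 1 were called from 13 to 25 DPA. The added gene was FtPinG0005053900.01, higher at 25 DPA, in the former case and FtPinG0007990400.01, lower at 25 DPA, in the latter. Calls over all genes were 10467 and 9776 in these cases, in place of 9964. FtPinG0004588200.01 held 43.4% ± 7.90, 38.8% ± 9.28 and 44.8% ± 6.89 of the summed receptor FPKM at 13, 19 and 25 DPA, whereas FtPinG0006952100.01 held 11.1% ± 6.53, 3.34% ± 1.38 and 1.79% ± 0.471. FtPinG0005053900.01 ranged from 12.1 to 34.4 FPKM and was highest in replicate 2 of 13 DPA, and FtPinG0007990400.01 ranged from 3.03 to 23.1.

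None of the 3 GRAS genes was called in any comparison by edgeR, beside 8.57%, 28.8% and 42.2% of all genes tested. At an unadjusted p under 0.05 there was 1 from 13 to 19 DPA, none from 19 to 25 DPA and 1 from 13 to 25 DPA, and DESeq2 called 1, 0 and 0. With total counts, 1 was called lower from 13 to 19 DPA and 2 from 13 to 25 DPA. FtPinG0002075100.01 dominated the family with 81.7% to 96.5% of its summed FPKM at 13 DPA and 79.8% to 88.4% afterwards. Its levels were 105, 30.0 and 60.0 FPKM at 13 DPA, 13.8, 17.4 and 15.3 at 19 DPA, and then 11.4, 18.6 and 16.0 at 25 DPA. In FPKM all 13 DPA libraries were above all later ones, which overlapped with each other, and after TMM scaling 13 DPA overlapped with both later stages. The difference was -1.18 ± 0.39 from 13 to 19 DPA (edgeR, adjusted p = 0.0877) and -0.93 ± 0.39 from 13 to 25 DPA (adjusted p = 0.0662). Without replicate 2 of 13 DPA, the lowest of its stage, 1 GRAS gene was called lower in each of these comparisons. Calls over all genes were then 3065 and 10467, in place of 2024 and 9964. FtPinG0007899800.01 and FtPinG0007899500.01 were low throughout, at 1.14 to 4.27 and 0.898 to 2.44 FPKM.

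The GASA genes were the most abundant of the gibberellin genes and mostly fell, with 1 member rising. Of the 9 tested, 3 were called lower from 13 to 19 DPA, 6 lower and 1 higher from 19 to 25 DPA, and 4 lower and 1 higher from 13 to 25 DPA. These calls were 33.3%, 77.8% and 55.6% of the 9. Among all genes tested, 4.46%, 19.5% and 25.6% were called lower and 4.11%, 9.27% and 16.6% higher. The median log2 fold changes of the 9 were 0.07, -2.66 and -3.58, beside medians of -0.03, -0.02 and -0.07 over all genes tested. With total counts the counts were 3 lower, then 6 lower and 1 higher, then 8 lower and 1 higher. Of the 23609 genes tested, 1469 were called higher and 12513 lower from 13 to 25 DPA with total counts. The 3 calls from 13 to 19 DPA became 1 without replicate 1 of 13 DPA, and 2 without replicate 3 of 13 DPA or without any 1 of the libraries of 19 DPA. The 7 calls from 19 to 25 DPA became 4 without replicate 1 or 3 of 19 DPA or without replicate 2 or 3 of 25 DPA, 3 without replicate 1 of 25 DPA, and 4 with limma on log2(FPKM + 1). Calls over all genes from 19 to 25 DPA were 5262, 5681, 6285, 5551, 5450 and 4595 in these settings, beside 6793 in the main fit. Those from 13 to 19 DPA also fell under the omissions listed, as given for all gibberellin genes.

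The steepest continuous falls were those of FtPinG0006919600.01 and FtPinG0006417500.01. FtPinG0006919600.01 went from 109, 30.4 and 82.7 FPKM at 13 DPA to 9.65, 8.03 and 8.40 at 19 DPA and then 0.624, 0.507 and 0.169 at 25 DPA. The stages did not overlap, and 7, 6 and 2 counts remained at 25 DPA. Its log2 fold changes were -2.21 ± 0.39, -4.04 ± 0.50 and -6.25 ± 0.51 (edgeR, adjusted p = 0.0142, 0.000894 and 9.25e-05). FtPinG0006417500.01 went from 36.6, 20.9 and 36.7 FPKM to 5.66, 3.68 and 5.50 and then to 0, 0.335 and 0.167, also without overlap. Its changes were -1.83 ± 0.40, -4.51 ± 0.55 and -6.34 ± 0.56 (edgeR, adjusted p = 0.0260, 0.000886 and 9.54e-05). The earliest call of FtPinG0006919600.01, from 13 to 19 DPA, was lost without replicate 1 of 13 DPA (adjusted p = 0.0582). That of FtPinG0006417500.01 was lost without replicate 1 (0.110) or 3 (0.0710) of 13 DPA or without replicate 1, 2 or 3 of 19 DPA (0.0679, 0.0753 and 0.0642). The later calls of both held under every alternative run at the same threshold.

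FtPinG0006187600.01 was lost already between 13 and 19 DPA. It had 170, 37 and 192 counts at 13 DPA (16.5, 3.35 and 20.4 FPKM), 0, 2 and 1 counts at 19 DPA, and 1, 1 and 0 counts at 25 DPA. No 13 DPA library overlapped with a later one. The changes were -5.95 ± 0.93 from 13 to 19 DPA and -6.28 ± 0.98 from 13 to 25 DPA (edgeR, adjusted p = 0.0104 and 0.000758), and both were called without any single library. Of the genes whose identifiers lie next to it, FtPinG0006188000.01 fell later, and FtPinG0006187800.01 was not tested, with 0 to 7 counts per library. FtPinG0006188000.01 was at 21.0, 29.2 and 14.9 FPKM at 13 DPA, 22.5, 29.1 and 20.8 at 19 DPA, and then 7.60, 4.83 and 1.57 at 25 DPA. Its change was -2.15 ± 0.54 from 19 to 25 DPA, stages that did not overlap (edgeR, adjusted p = 0.0133). From 13 to 25 DPA it was -1.20 ± 0.53 and was not called by edgeR (adjusted p = 0.0813) but was by DESeq2 (adjusted p = 0.0498), with the stages apart in FPKM but overlapping after TMM scaling. From 13 to 19 DPA it was 0.95 ± 0.51 (adjusted p = 0.278), and the blocked fit of those 6 libraries called it higher (1.02, adjusted p = 0.0145). How reads matching several genes were counted is not given in the sources used here, and whether these genes share sequence was not examined.

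The leading GASA gene changed between stages. FtPinG0006350100.01 was at 845, 287 and 664 FPKM at 13 DPA, 276, 183 and 202 at 19 DPA, and then 10.9, 8.50 and 59.9 at 25 DPA. No library of 25 DPA reached those of 19 DPA, replicate 3 being the highest of the stage, and no library of 19 DPA reached those of 13 DPA in FPKM. It fell by 2.66 ± 0.76 from 19 to 25 DPA and by 3.24 ± 0.77 from 13 to 25 DPA on the log2 scale (edgeR, adjusted p = 0.0220 and 0.00666). The earlier call was lost without replicate 1 of 19 DPA (adjusted p = 0.0568) or replicate 1 of 25 DPA (0.0687). Between 13 and 19 DPA its change was -0.58 ± 0.71 (adjusted p = 0.656).

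FtPinG0007855800.01 rose over the same days. It was at 25.0, 49.3 and 22.3 FPKM at 13 DPA, 43.9, 50.9 and 41.5 at 19 DPA, and then 87.8, 123 and 65.0 at 25 DPA. The 25 DPA libraries lay above all others, while replicate 2 of 13 DPA lay among those of 19 DPA. The log2 fold change from 13 to 25 DPA was 2.52 ± 0.43 (edgeR, adjusted p = 0.00121) and held under every alternative run at the same threshold. From 13 to 19 DPA it was 1.26 ± 0.41 (adjusted p = 0.0861), and with the replicate number as a block 1.38 (adjusted p = 0.0110), which was called. From 19 to 25 DPA it was 1.25 ± 0.41 (edgeR, adjusted p = 0.0377) and was not called without replicate 1 (0.115) or 3 (0.124) of 19 DPA, without replicate 1, 2 or 3 of 25 DPA (0.0771, 0.107 and 0.0555), or with limma on log2(FPKM + 1) or log2(FPKM + 0.1).

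As shares of the summed GASA FPKM, FtPinG0006350100.01 held 55.6% ± 5.16, 46.9% ± 9.83 and 11.5% ± 13.1 at the successive stages, and its replicates of 25 DPA were at 3.80%, 3.93% and 26.6%. FtPinG0007855800.01 held 4.08% ± 3.86, 9.75% ± 1.78 and 38.9% ± 15.7. FtPinG0002727000.01, the other abundant member, held 25.2% ± 1.34, 32.2% ± 7.91 and 47.3% ± 13.6 while its fitted changes were 0.07 ± 0.38, -0.09 ± 0.39 and -0.01 ± 0.39, none of them called. It was not singled out by the naming rule and is given because it held a large share. The summed GASA FPKM was 1050 ± 432, 470 ± 33.9 and 242 ± 37.9, and after TMM scaling 654 ± 223, 532 ± 53.8 and 335 ± 56.9. On the scaled sums, replicate 2 of 13 DPA (441) lay below all libraries of 19 DPA.

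FtPinG0007503000.01 and FtPinG0006944700.01 were called lower from 19 to 25 DPA on levels that differed widely between replicates. FtPinG0007503000.01 was at 4.79, 2.12 and 30.4 FPKM at 13 DPA, 6.01, 0 and 28.4 at 19 DPA and then 0, 0.129 and 0.513 at 25 DPA. FtPinG0006944700.01 was at 1.12, 2.76 and 5.25 FPKM, then 1.30, 0.106 and 9.90, then 0.110, 0 and 0.207. In both, replicate 3 was highest and replicate 2 lowest at 19 DPA, and the stages overlapped through replicate 2 of 19 DPA. The changes were -5.22 ± 1.84 and -4.62 ± 1.52 (edgeR, adjusted p = 0.0492 and 0.0383). Without replicate 3 of 19 DPA the adjusted p was 0.182 and 0.197, without replicates 1, 2 and 3 of 25 DPA it was 0.137, 0.127 and 0.0851 for the former and 0.106, 0.104 and 0.0754 for the latter. The call of FtPinG0007503000.01 was also lost without replicate 1 of 19 DPA (0.0726), without replicate 1 (0.0631) or 2 (0.0554) of 13 DPA and without the filter on low counts. Limma on log2(FPKM + 1) or log2(FPKM + 0.1) called neither gene lower in this comparison.

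**Figure D3:**
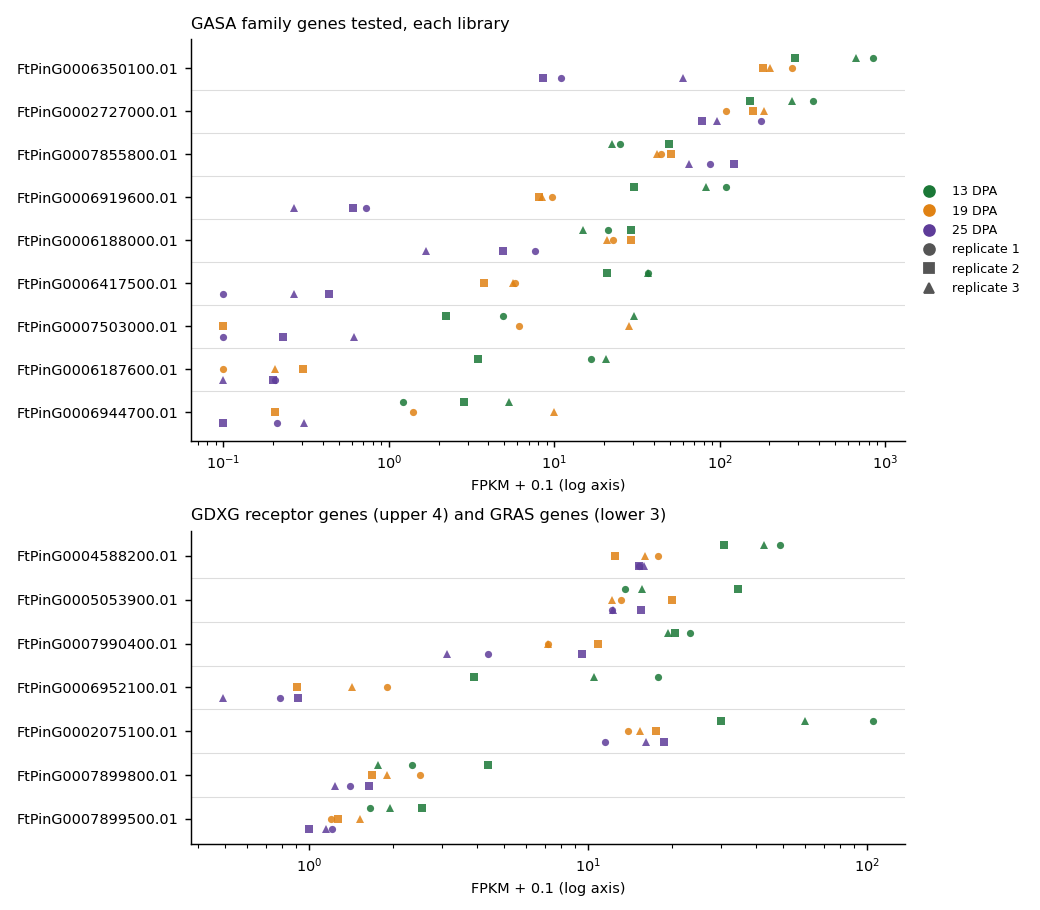
FPKM plus 0.1 on log axes for the 9 GASA genes tested (upper panel) and for the receptor and GRAS genes (lower panel), ordered by mean FPKM within family. Each symbol is a library, coloured by stage and shaped by replicate number; FtPinG0006919600.01 and FtPinG0006417500.01 separate all 3 stages, and FtPinG0007855800.01 is the GASA gene whose 25 DPA libraries lie right of the others.

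Among the cytokinin synthesis genes, 2 LOG genes were called, in opposite directions. FtPinG0001266800.01 rose to become the leading LOG gene at 25 DPA, and FtPinG0003898800.01, a low-level member, fell. Of the 13 synthesis genes, 8 LOG genes and 1 P450 gene were tested. None was called from 13 to 19 DPA by edgeR, where 3 had an unadjusted p under 0.05 and 8.57% of all genes tested were called. DESeq2 called FtPinG0001266800.01 higher there, and called lower 1 gene that had not passed the filter. By edgeR, 1 was higher and 1 lower from 19 to 25 DPA and from 13 to 25 DPA. The LOG calls were 25% of the 8 tested in each of the later comparisons, beside 28.8% and 42.2% of all genes tested. The medians over the 8 LOG genes were 0.02, -0.13 and -0.09. With total counts, 1 LOG gene was higher and 5 were lower from 13 to 25 DPA. Of all 23609 genes tested, 1469 were higher and 12513 lower in that setting.

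FtPinG0001266800.01 was at 3.07, 5.43 and 1.35 FPKM at 13 DPA, 6.06, 6.90 and 6.42 at 19 DPA, and then 21.2, 18.0 and 14.9 at 25 DPA. The 3 stages did not overlap. The log2 fold change was 1.74 ± 0.49 from 19 to 25 DPA and 3.46 ± 0.52 from 13 to 25 DPA (edgeR, adjusted p = 0.0210 and 0.000708), and the latter held under every alternative run at the same threshold. Between 13 and 19 DPA it was 1.72 ± 0.50 (adjusted p = 0.0622), and with the replicate number as a block 1.87 (adjusted p = 0.0303), which was called. The call from 19 to 25 DPA was lost without replicate 1 (adjusted p = 0.0743) or 3 (0.0690) of 19 DPA or replicate 1 of 25 DPA (0.0635). Without either library of 19 DPA or without replicate 1 of 25 DPA, 1 LOG gene in place of 2 was called in that comparison. Calls over all genes were 5262, 5681 and 5450 there, in place of 6793.

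FtPinG0003898800.01 was at 2.72, 2.08 and 3.51 FPKM at 13 DPA, 0.708, 1.95 and 0.769 at 19 DPA, and then 0.192, 0.227 and 0.0907 at 25 DPA. Only 4, 5 and 2 counts remained at 25 DPA, below every earlier library. It fell by 2.55 ± 0.63 from 19 to 25 DPA and by 2.88 ± 0.62 from 13 to 25 DPA on the log2 scale (edgeR, adjusted p = 0.0121 and 0.00395). Both calls held without any single library. The call from 19 to 25 DPA was lost with limma on log2(FPKM + 1), with and without the filter on low counts.

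FtPinG0007288900.01 had the highest mean FPKM of the LOG genes and was not called by edgeR over all 9 libraries. It was at 22.1, 12.9 and 7.43 FPKM at 13 DPA, 21.6, 12.3 and 13.7 at 19 DPA, and then 8.27, 6.46 and 5.83 at 25 DPA. The log2 fold changes were 0.94 ± 0.39 from 13 to 19 DPA and -0.91 ± 0.39 from 19 to 25 DPA (edgeR, adjusted p = 0.157 and 0.0918), and from 13 to 25 DPA it was 0.03 ± 0.39, which with total counts reversed to -1.05. The blocked fit of only the 6 libraries of 13 and 19 DPA called it higher at 19 DPA (1.08, adjusted p = 0.0303). Of the summed LOG FPKM it held 27.8% ± 9.54, 40.4% ± 6.57 and 18.1% ± 1.69 at 13, 19 and 25 DPA. The share of FtPinG0001266800.01 was 6.88% ± 4.87, then 17.0% ± 3.31 and then 47.7% ± 4.21, with no overlap between 25 DPA (43.1% to 51.4%) and the earlier libraries (3.18% to 19.9%).

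The summed level of the LOG family had a direction that depended on the scale. Its FPKM was 48.9 ± 10.2, 38.7 ± 5.62 and 37.6 ± 3.39 at 13, 19 and 25 DPA, and after TMM scaling 31.5 ± 7.35, 43.8 ± 5.36 and 52.0 ± 4.47. Of the other LOG genes tested, FtPinG0007342200.01 (6.71 to 19.6 FPKM) and FtPinG0004139100.01 (3.30 to 10.2) had fitted changes between -0.23 and 0.19, with the FPKM lower after 13 DPA in both. FtPinG0005927100.01, FtPinG0008603100.01 and FtPinG0003486500.01 stayed at or below 1.66 FPKM and were not called by edgeR, although DESeq2 called FtPinG0008603100.01 higher from 19 to 25 DPA (adjusted p = 0.0304, edgeR 0.0642), and FtPinG0009006700.01 and FtPinG0002025600.01 were not tested, with at most 16 counts in a library.

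**Figure D4:**
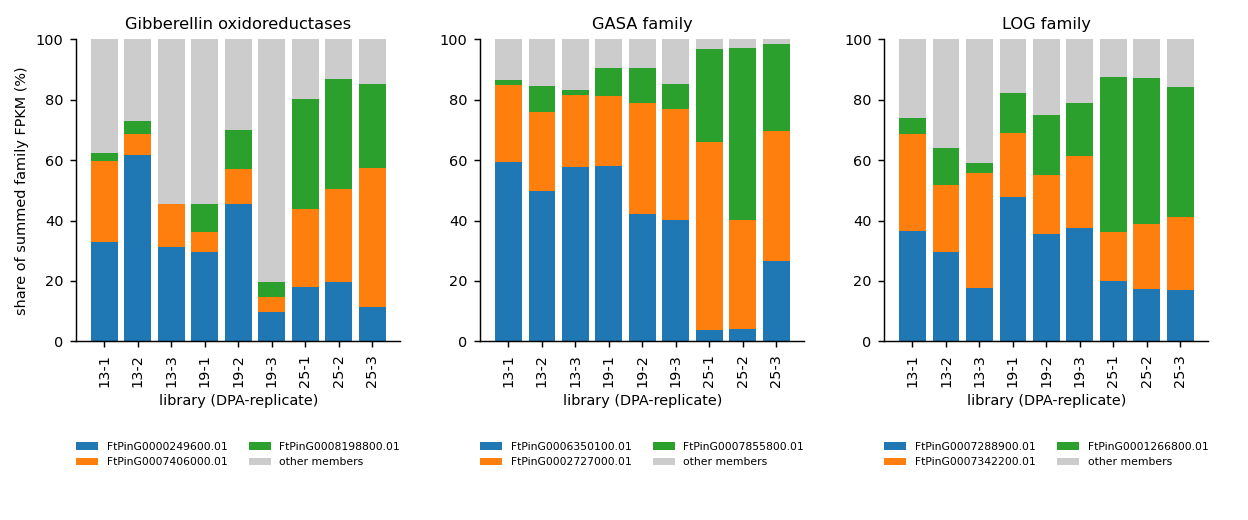
Share of each family's summed FPKM (y axis, percent) in each library (x axis, DPA and replicate) for 3 members and the rest (grey) of the gibberellin oxidoreductases, the GASA genes and the LOG genes. At 25 DPA FtPinG0008198800.01 and FtPinG0007406000.01 take 62.3% to 73.9% of the first family, FtPinG0006350100.01 gives way to FtPinG0002727000.01 and FtPinG0007855800.01 in the GASA genes, and FtPinG0001266800.01 takes 43.1% to 51.4% of the LOG genes.

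Of the 3 P450 genes, FtPinG0008308300.01 alone passed the filter. It was at 0.541, 0.253 and 3.20 FPKM at 13 DPA, 0.774, 0.0282 and 5.61 at 19 DPA, and then 0, 0.0828 and 0.165 at 25 DPA. Replicate 3 was highest at both earlier stages and the stages overlapped. The difference from 19 to 25 DPA, -4.20 ± 1.63, was not called (edgeR, adjusted p = 0.0685), while DESeq2 called it (adjusted p = 0.00888). FtPinG0007828000.01 had 5, 25 and 5 counts at 13 DPA and none in the 6 later libraries, too few to be tested. FtPinG0007484100.01 had no count in any library.

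Among the FAD-linked oxidoreductase genes, the family of the cytokinin oxidases/dehydrogenases, FtPinG0005658800.01 was the 1 member called out of 5 tested, and it fell at 25 DPA. It was at 0.721, 1.45 and 0.819 FPKM at 13 DPA, 1.44, 0.362 and 1.01 at 19 DPA, and then 0.115, 0.0545 and 0.0272 at 25 DPA. Its 4, 2 and 1 counts at 25 DPA lay below all earlier libraries, and the earlier stages overlapped. The changes were -3.46 ± 0.71 from 19 to 25 DPA and -2.86 ± 0.71 from 13 to 25 DPA (edgeR, adjusted p = 0.00553 and 0.00752). Both held without any single library and were not called with limma on log2(FPKM + 1). The 1 call was 20% of the 5 tested in each of these comparisons, beside 28.8% and 42.2% of all genes tested. Between 13 and 19 DPA no gene of the family was called by edgeR or DESeq2, and none had an unadjusted p under 0.05.

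The more abundant members of this family were not called by edgeR. FtPinG0003101700.01 was at 9.29, 23.6 and 11.1 FPKM at 13 DPA, 5.25, 7.07 and 5.78 at 19 DPA, and then 2.06, 4.57 and 2.48 at 25 DPA. Its stages did not overlap in FPKM but did after TMM scaling, and its change from 13 to 25 DPA was -1.27 ± 0.48 (edgeR, adjusted p = 0.0505), which DESeq2 called (adjusted p = 0.0231). DESeq2 also called FtPinG0001537500.01 higher in this comparison (adjusted p = 0.0314, edgeR 0.0510). In place of 1 gene of the family, 2 were called from 13 to 25 DPA without replicate 1 or 3 of 13 DPA, replicate 1 or 2 of 19 DPA or replicate 2 of 25 DPA, and 3 without replicate 3 of 25 DPA, which also gave 2 from 19 to 25 DPA. Calls over all genes from 13 to 25 DPA were 8870 to 10467 when single libraries were left out, beside 9964 in the main fit. FtPinG0005613800.01 was at 6.69, 4.53 and 10.4 FPKM, then 5.34, 2.70 and 15.7, then 7.67, 6.35 and 4.96, and its share of the summed FPKM was 20.6% ± 7.65, 32.5% ± 10.7 and 47.3% ± 11.1. FtPinG0008345600.01 was at 5.79, 6.88 and 19.8 FPKM, then 2.87, 1.12 and 12.1, then 0.231, 0.273 and 5.24, with replicate 3 highest at each stage. FtPinG0001537500.01 ranged from 0.638 to 3.24 FPKM, and FtPinG0002134900.01 and FtPinG0005900800.01 were not tested, with at most 16 counts and 1 count in a library.

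**Figure D5:**
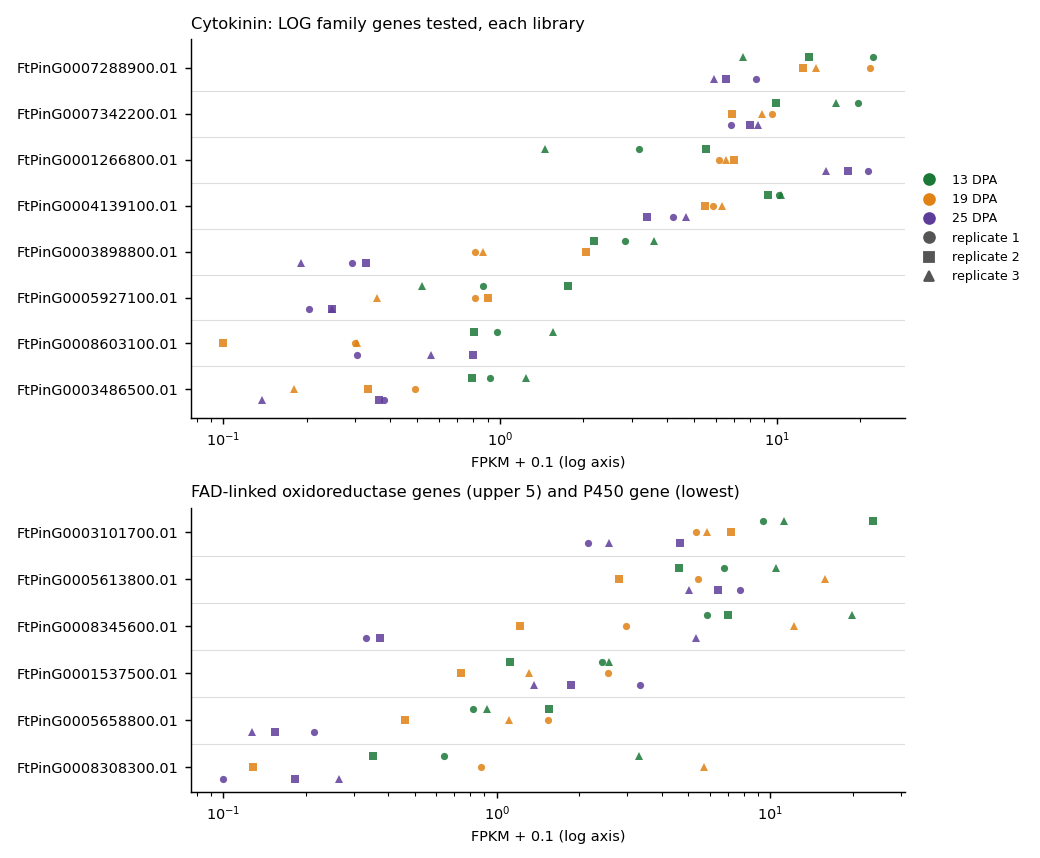
FPKM plus 0.1 on log axes for the 8 LOG genes tested (upper panel) and for the 5 FAD-linked oxidoreductase genes and the P450 gene (lower panel). Each symbol is a library, coloured by stage and shaped by replicate number. FtPinG0001266800.01 is the LOG gene whose 25 DPA libraries lie right of its others. For FtPinG0003898800.01 and FtPinG0005658800.01 the 25 DPA libraries lie left of their own earlier ones.

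Across the 35 gibberellin and 20 cytokinin genes, levels per length spanned from none to 845 FPKM. Of the gibberellin genes, 19 reached a stage mean of 10 FPKM and 2 reached 100 FPKM, both of them GASA genes. Of the cytokinin genes, 5 reached 10 FPKM and none 100 FPKM, and 9 stayed under 1 FPKM at every stage, compared with 7 of the gibberellin genes.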

How the data were processed

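RNA was measured by sequencing in 9 libraries of Tartary buckwheat seeds, 3 each at 13, 19 and 25 DPA. The authors aligned the reads to the buckwheat genome, with TopHat2 2.0.12 and Bowtie2 2.0.6 per the submitters' processing notes, and deposited whole-number counts per gene. Which tool counted the reads, with what strand setting, and how multi-mapping reads were handled are points not given in the sources used here. As deposited, the FPKM divide those counts by gene length and library total, without a further factor between libraries. Both tables hold 33940 genes, of which 3719 had no count. Members came from the annotation list by identifier, and no sequence of them was used here. The members, families and tests were chosen with earlier results of these data known.

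All 9 libraries entered 1 quasi-likelihood fit of edgeR 4.0.16 (in R 4.3.3, robust, with TMM factors, without a block, after filterByExpr). Benjamini-Hochberg adjustment covered all 23609 genes that passed the filter, and a gene was called at an adjusted p of at most 0.05 and a log2 fold change of at least 1 in size. For a library at 0, up to 3 counts were taken as possible, a floor for counting error alone. Scaled FPKM are FPKM divided by the TMM factor. Values after ± are SD over 3 libraries for levels and shares, and standard errors for log2 fold changes. The p-values weigh a difference between stages against the spread between libraries of a stage. Without a block, that spread includes any differences between plants. Named genes were, by rule, every member called in at least 1 comparison and the member of each family with the highest mean FPKM; the others are given by ranges and counts. The alternatives were DESeq2 1.42.0, limma 3.58.1 on log2(FPKM + 1) and log2(FPKM + 0.1), other scaling factors, no filter, an adjusted p of at most 0.01, a replicate block, only the libraries of a pair, and leaving out each library in turn. The limma fits used the deposited FPKM without TMM factors, so they differ from the main fit in scaling as well as in model. Their medians over all genes tested from 13 to 19 DPA were -0.695 and -0.84 with the filter. The scripts were tested on simulated data.

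Deviations from the stage means of libraries with the same replicate number correlated between 13 and 19 DPA across genes (r = 0.353, 0.494 and 0.590 for replicates 1, 2 and 3), so the numbers were taken to pair these stages; this pairing comes from the data and not from the labels. Between 13 and 25 DPA r was -0.0279, 0.00757 and 0.133, and between 19 and 25 DPA 0.0258, 0.0329 and 0.197, so the numbers were not taken to pair 25 DPA with the others.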

Additional observations from a re-analysis of the deposited data

How the results depend on the processing

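No called gene changed direction under the alternatives run. FtPinG0007288900.01, not called from 13 to 25 DPA (0.03 with TMM), was called with the opposite sign with total counts (-1.05), a setting in which the median of all genes was -1.19. Over the named genes, 1329 values under the alternatives kept their side of the threshold, 97 lost and 91 gained a call. Counts of calls depended more on the processing. Gibberellin calls from 13 to 19 DPA (6) were 10 with total counts, 10 and 11 with limma at pseudocounts of 1 and 0.1, 10 with limma without a filter, 0 at an adjusted p of at most 0.01, 9 with a replicate block fitted to only the 6 libraries of these stages (added after seeing the data), and 1 to 11 when single libraries were left out. From 19 to 25 DPA (11) they were 7 with limma at a pseudocount of 1, with or without a filter, 4 at an adjusted p of at most 0.01, and 5 to 12 when single libraries were left out. From 13 to 25 DPA (12) they were 20 with DESeq2, 21 with total counts, 21 with limma at a pseudocount of 0.1, and 10 to 14 when single libraries were left out. Cytokinin calls from 13 to 19 DPA (0) were 2 with DESeq2, 2 with total counts, 1 without a filter, 1 with the replicate block, 2 with the block on 6 libraries, 1 and 5 with limma at the pseudocounts of 1 and 0.1, 1 with limma without a filter, and 0 to 1 when single libraries were left out. From 19 to 25 DPA (3) they were 5 with DESeq2, 5 with total counts, 1 with limma without a filter, 1 at an adjusted p of at most 0.01, and 2 to 4 when single libraries were left out. From 13 to 25 DPA (3) they were 5 with DESeq2, 8 with total counts, 6 with the replicate block, 5 and 8 with limma at the pseudocounts of 1 and 0.1, 5 with limma without a filter, and 3 to 5 when single libraries were left out. Calls over all genes shifted too. From 13 to 19 DPA they were 2024 in the main fit, 3282 with DESeq2, 7955 with total counts, and 6332 and 8140 with limma at these pseudocounts. From 19 to 25 DPA they were 6793, 7565, 6740, 4595 and 6527, and from 13 to 25 DPA 9964, 10843, 13982, 11780 and 13887. With single libraries left out the ranges were 402 to 3065, 5262 to 7077 and 8870 to 10467. The cause of these shifts was not tested beyond the construction of each alternative.

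With the replicate number as a block over all 9 libraries, gibberellin calls were 7, 13 and 18 (2 higher and 5 lower, 4 and 9, 6 and 12), and cytokinin calls 1, 4 and 6. Calls over all genes under this block were 2743, 7184 and 10311, in place of 2024, 6793 and 9964. From 13 to 19 DPA the block added the calls of FtPinG0007855800.01 and FtPinG0001266800.01 and changed no other; the blocked fit of only the 6 libraries also added FtPinG0008699300.01, FtPinG0006188000.01 and FtPinG0007288900.01. The numbers did not pair 25 DPA with the other stages, so calls involving 25 DPA under the block are values only. Members with few counts at 25 DPA, such as FtPinG0005658800.01 with 7 counts in 3 libraries, limit how precisely a fall can be sized.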
